A study of Mus musculus with 2 samples.

Results

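Dclk1, Trpm5, Sh2d6, Avil, Rgs13, Pou2f3, Alox5ap, Il17rb and Il25 are 9 genes that mark or serve the tuft cell, a rare chemosensory cell of the gut lining. They were taken by symbol from the gene list of 2 single-cell RNA libraries of mouse small intestinal epithelium, and they were 9 of 55357 genes measured. The study's results describe this epithelium as enriched for crypts, while its single-cell methods describe dissociated tissue pieces and name no such step. Shares of barcodes therefore cannot be read as those of unselected epithelium. One library came from Adipfl/fl mice, which carry floxed adiponectin alleles and no Cre, and the other from Adipfl/flpVilli-CreT mice, in which the same floxed alleles are combined with Cre recombinase under the villin promoter, a promoter active in intestinal epithelial cells. Both genotypes carry the floxed alleles, so neither is a wild-type strain. The mice of a genotype were male and were pooled into 1 library. Droplet capture tagged transcripts with a cell barcode and a unique molecular identifier (UMI), so that a UMI stands for 1 captured molecule. With 1 library per genotype nothing can be tested between genotypes, and the exact 95% intervals on UMI counts, shares and folds reflect counting error alone.

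The libraries held 9791 and 11838 barcodes with 42150623 and 63370798 UMIs, named first for Adipfl/fl and then for Adipfl/flpVilli-CreT here and throughout. Barcodes with over 500 genes and under 25% mitochondrial UMIs were kept, which left 3069 and 5555. Adipoq, the targeted gene, had 1 and 0 UMIs over all barcodes, too few to check the labels. In all, 31 barcode sequences occurred in both libraries, and 1 tuft-like barcode carried one of them.

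Tuft cells sense luminal metabolites with the machinery of taste cells. Receptor and G protein signals release calcium, calcium opens the cation channel Trpm5, and the cell then secretes IL-25 and cysteinyl leukotrienes, which act on type 2 innate lymphoid cells. IL-13 from those lymphoid cells acts back on crypt progenitors and favours more tuft and goblet cells. The transcription factor Pou2f3 is required for the lineage, and Alox5ap, which presents arachidonic acid to 5-lipoxygenase, is also widely used by leukocytes.

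The genes lie on 8 chromosomes of the mouse genome build GRCm38 (GENCODE M21 annotation), and all are protein coding. Dclk1, a microtubule-associated kinase (ENSMUSG00000027797), lies at chr3:55242364-55539068 on the plus strand and overlaps Gm21954 on the minus strand. Trpm5 (ENSMUSG00000009246) lies at chr7:143069153-143094642 on the minus strand, and Tssc4 at chr7:143069249-143071093 overlaps it on the plus strand. Sh2d6, an SH2 domain adaptor (ENSMUSG00000052631), lies at chr6:72513641-72521707 on the minus strand. Avil, the actin-binding protein advillin (ENSMUSG00000025432), lies at chr10:127000709-127020994 on the plus strand and overlaps Tsfm on the minus strand. Rgs13, a regulator of G protein signalling (ENSMUSG00000051079), lies at chr1:144138654-144177372 on the minus strand. Pou2f3 (ENSMUSG00000032015) lies at chr9:43123939-43210369 on the minus strand and Alox5ap (ENSMUSG00000060063) at chr5:149264767-149288153 on the plus strand. Il17rb, the binding subunit of the IL-25 receptor (ENSMUSG00000015966), lies at chr14:29996135-30008896 on the minus strand and overlaps Actr8 on the plus strand, and Il25 (ENSMUSG00000040770) lies on the same chromosome at chr14:54932695-54935837 on the plus strand. Whether the counting used strand is not stated in the sources used here, and whether reads of the 4 overlapping pairs were told apart was not checked.

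Pou2f3 belongs to the POU family, whose octamer element is ATGCAAAT. The 250 bases before the start of 6 of the 9 genes were available from RefSeq (GRCm38.p6). The full octamer, searched on both strands as ATGCAAAT and ATTTGCAT, was in 0 of these 6 genes and in 1.81% of 27025 genes. Its first 7 letters, ATGCAAA or TTTGCAT, were in 1 of 6, Avil, and in 4.65% of all genes. The Avil and Trpm5 windows are shown because Avil holds 2 such matches and Trpm5, the channel gene with most UMIs outside tuft-like barcodes in enterocyte-like ones, holds none. Capitals mark the 7 letters. The Avil window is chr10:127000459-127000708 on the plus strand and the Trpm5 window chr7:143094643-143094892 on the minus strand, both written 5′ to 3′.
Avil: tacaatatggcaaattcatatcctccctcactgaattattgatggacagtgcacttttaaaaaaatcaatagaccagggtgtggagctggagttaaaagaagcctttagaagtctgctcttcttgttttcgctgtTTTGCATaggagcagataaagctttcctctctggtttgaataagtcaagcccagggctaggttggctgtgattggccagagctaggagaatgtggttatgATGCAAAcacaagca
Trpm5: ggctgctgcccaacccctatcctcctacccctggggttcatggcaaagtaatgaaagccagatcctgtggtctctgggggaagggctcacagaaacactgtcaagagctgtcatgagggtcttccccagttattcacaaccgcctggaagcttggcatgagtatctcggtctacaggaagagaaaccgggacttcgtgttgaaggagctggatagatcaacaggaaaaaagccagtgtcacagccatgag
A match is a description of the letters and not a binding site.

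One cluster of barcodes was tuft-like, with 76 barcodes in Adipfl/fl mice and 62 in Adipfl/flpVilli-CreT mice. The 9 genes were left out of the clustering, and 11 of 12 tuft markers that are not among the 9 were at least 2-fold higher in this cluster than in the other kept barcodes. Among its leading genes were Sh2d6, Rgs13, Dclk1, Nrgn, Strip2, Ly6g6f, Sh2d7, Siglecf and Avil. None of 15 myeloid, 11 T cell or 7 goblet markers met the same rule there, while 3 of 15 crypt, 1 of 14 enterocyte and 1 of 7 mast cell markers did. Tuft-like barcodes were 2.48% of the kept barcodes in Adipfl/fl mice (95% CI 1.96 to 3.09) and 1.12% in Adipfl/flpVilli-CreT mice (0.857 to 1.43), a ratio of 0.451 (0.317 to 0.639). These shares depend on the filter: they were 4.05% and 2.28% at a mitochondrial limit of 10%, and 0.995% and 0.658% with the mitochondrial share taken from the 13 protein-coding genes. With the 8% of barcodes of the highest doublet score (Scrublet) removed, they were 1.91% and 1.17%, a ratio of 0.614 (0.418 to 0.903). Tuft-like barcodes were deeper in the second library, with a median of 5340 and 8715 UMIs. The class took 2.41% and 1.43% of all kept UMIs.

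In both libraries, each of the 9 genes was highest in tuft-like barcodes. Levels are UMIs per 1000000 UMIs of a class (CPM) and are compared between classes or libraries for 1 gene, not between genes. Over both libraries, 8 of the genes had the 50 UMIs needed for a comparison with the other kept barcodes, and 8 of 8 were at least 10-fold higher in tuft-like barcodes, where 2.07% of 14158 genes were. The same 8 had over 50% of their UMIs there (0.756% of all genes), and Dclk1, Sh2d6 and Rgs13 had over 90% (0.219%). Il25, with 39 UMIs in tuft-like and 3 in other barcodes, was below the limit. Because the barcodes were grouped by their transcripts, these shares describe the class and were not tested.

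**Figure D1:**
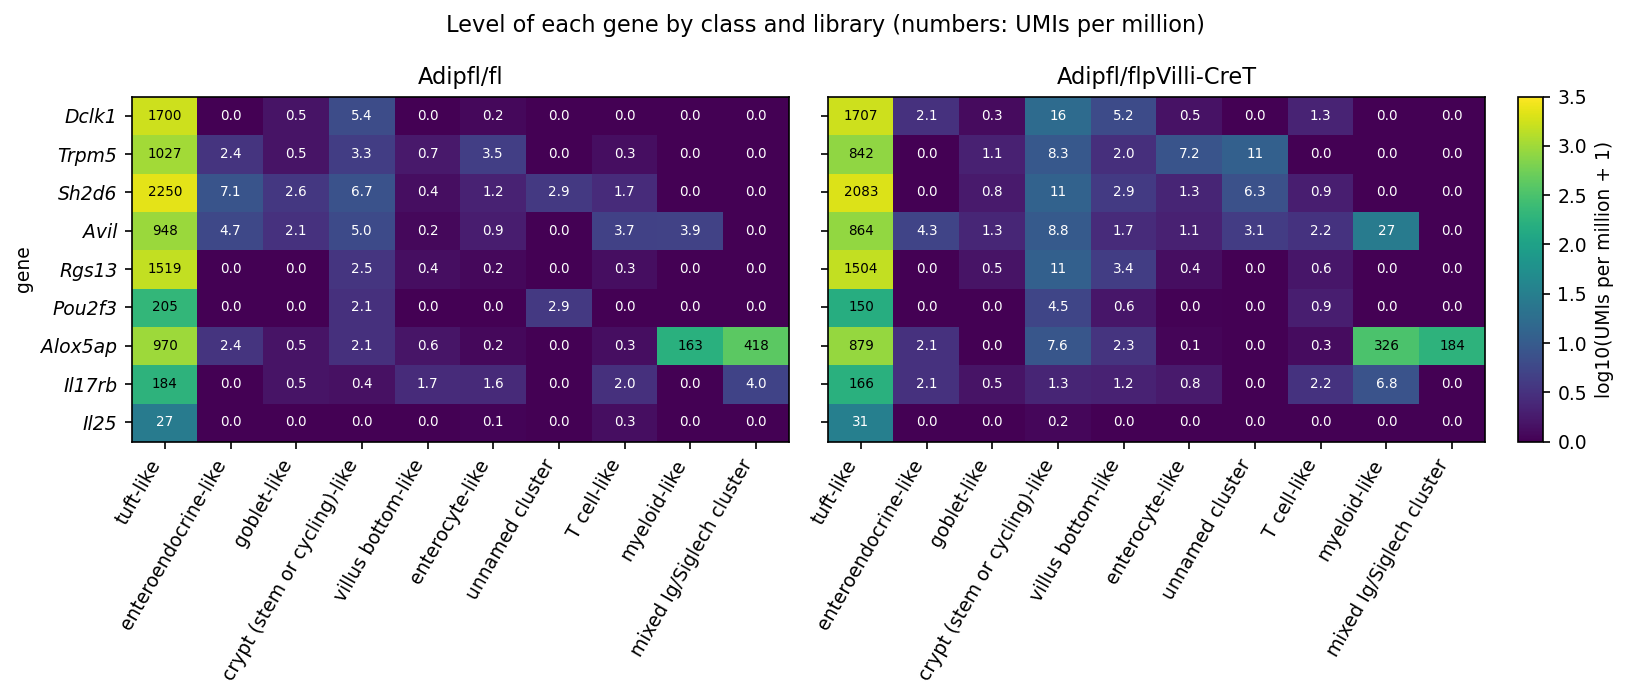
Level of each of the 9 genes in each class of barcodes, for the Adipfl/fl library (left) and the Adipfl/flpVilli-CreT library (right). Colour is log10(CPM + 1) and the printed numbers are CPM. The tuft-like column is the highest for all 9 genes in both libraries, and Alox5ap also reaches 163 to 418 CPM in the myeloid-like and mixed Ig/Siglech columns.

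The calcium-gated channel Trpm5 had 635 UMIs in tuft-like barcodes of Adipfl/fl mice (1027 CPM) and 589 in those of Adipfl/flpVilli-CreT mice (842 CPM). The fold of the second library over the first was 0.819 (95% CI 0.731 to 0.918). Per barcode, the median Trpm5 level was 1393 CPM in the first library and 1086 CPM in the second, and the interquartile ranges overlapped (764 to 2040.0 and 663 to 1646 CPM).

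Pou2f3, the lineage factor, had 127 and 105 UMIs there (205 and 150.0 CPM). Its fold was 0.730 (0.559 to 0.953). At a median of 1 UMI per tuft-like barcode in each library, single barcodes say little about this gene.

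Among the signalling and cytoskeletal genes, Sh2d6 had 1391 and 1458 UMIs (2249.7 and 2083 CPM), a fold of 0.926 (0.860 to 0.997) whose interval ends just below 1. The kinase Dclk1 had 1051 and 1195 UMIs (1699.8 and 1707 CPM), a fold of 1.00 (0.924 to 1.09). For Rgs13 the counts were 939 and 1053 (1519 and 1504 CPM), a fold of 0.991 (0.906 to 1.08). These 2 genes had the folds nearest to 1 of the 9, each with an interval within 10% of 1 on either side. Avil had 586 and 605 UMIs (948 and 864 CPM), a fold of 0.912 (0.813 to 1.02).

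In the leukotriene arm, Alox5ap had 600 and 615 UMIs in tuft-like barcodes (970.4 and 879 CPM), a fold of 0.905 (0.808 to 1.01). In the cytokine arm, Il17rb had 114 and 116 UMIs (184 and 166 CPM), a fold of 0.899 (0.688 to 1.17). The cytokine Il25 had 17 and 22 UMIs (27.5 and 31.4 CPM), a fold of 1.14 (0.580 to 2.29), an interval that holds differences in either direction.

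Within tuft-like barcodes, then, 0 of 9 genes differed by 1.5-fold or more in either direction, where 18.8% of the 7167 genes with at least 20 UMIs did. Intervals lay below 1 for 3 genes (Trpm5, Sh2d6 and Pou2f3) and above 1 for 0, where 3.74% and 6.21% of the 7167 genes did. Both libraries together held from 39 (Il25) to 2849 (Sh2d6) tuft-like UMIs of the 9 genes. The shares over all genes, here and below, were not matched for UMI count, on which such calls depend. The median log2 fold was -0.13 over the 9 genes and 0.04 over all genes. In the Adipfl/flpVilli-CreT library, 4 tuft-like barcodes stood out by their transcripts of goblet or T cell genes. Of these, 2 had 1365 and 1356 UMIs of 5 goblet genes (Muc2, Fcgbp, Zg16, Clca1 and Tff3). The other 2 had 89 and 40 UMIs of 5 T cell genes. The highest such values in Adipfl/fl tuft-like barcodes were 30 and 2. Without these 4 barcodes, a choice made after seeing the data, the Sh2d6 fold was 1.00 (0.928 to 1.08), the Trpm5 fold 0.903 (0.805 to 1.01) and the Pou2f3 fold 0.815 (0.622 to 1.07), so that none of the 3 intervals lay below 1. Barcodes were taken from the second library alone, so this removal cannot decide whether the 3 levels differ. Enterocyte transcripts were in every tuft-like barcode of both libraries: 14 enterocyte markers had 11143 and 14095 UMIs (18022 and 20138 CPM). The highest single barcodes held 2493 and 3140 of them, and the source of these transcripts was not tested. With the 8% of barcodes of the highest doublet score (Scrublet) removed from each library, the intervals of Dclk1 (1.21), Rgs13 (1.25) and Alox5ap (1.17) lay above 1, while those of Trpm5 (0.824) and Sh2d6 (0.917) stayed below it and that of Pou2f3 (0.866) included it.

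**Figure D2:**
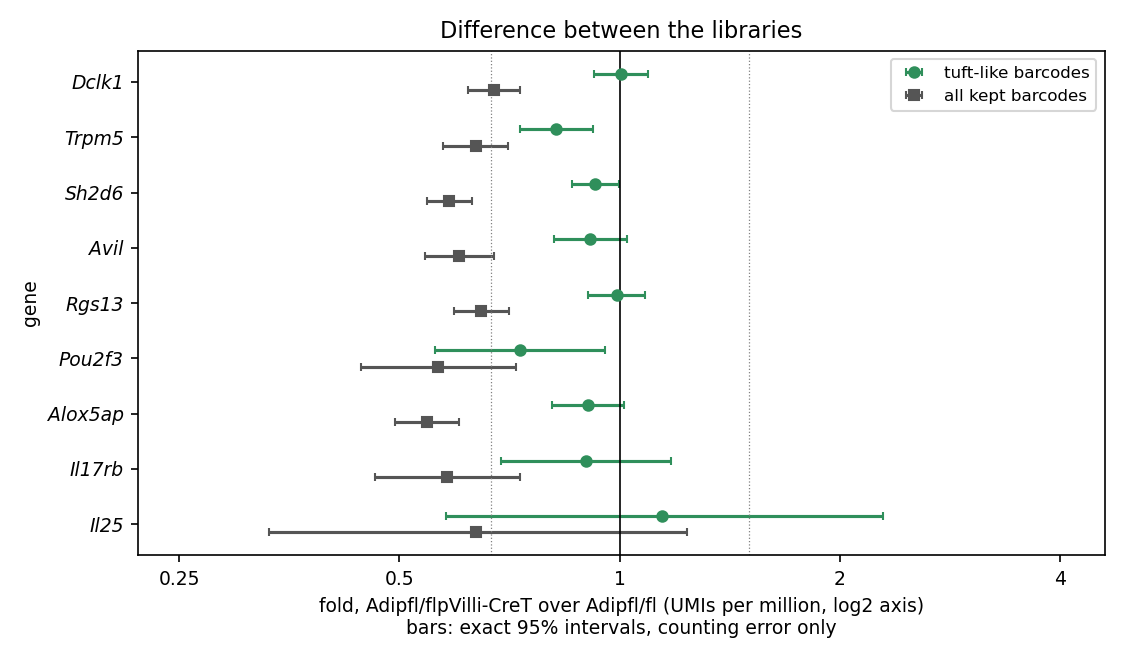
Fold of each gene, Adipfl/flpVilli-CreT over Adipfl/fl, on a log2 axis, within tuft-like barcodes (circles) and over all kept barcodes (squares), with exact 95% intervals and dotted lines at 1.5-fold either way. All circles lie between the dotted lines, and the squares lie between 0.545 for Alox5ap and 0.673 for Dclk1.

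Over all kept barcodes, every one of the 9 genes was lower in the Adipfl/flpVilli-CreT library. The folds ran from 0.545 (Alox5ap, 29.6 and 16.1 CPM) to 0.673 (Dclk1, 41.5 and 28.0 CPM), with a median of 0.604. Of the 9, 0 were at least 1.5-fold higher and 8 at least 1.5-fold lower, where 3.52% and 14.6% of 16380 genes were, and 8 had an interval below 1, where 28% were. Il25, at 19 and 23 UMIs, had a fold of 0.636 with an interval from 0.331 to 1.23. The ratio of the UMI shares of tuft-like barcodes was 0.595. These folds rest on which barcodes count as doublets: with the same removal by doublet score, 54 of 76 and 60 of 62 tuft-like barcodes were left, the median fold was 0.854, and Dclk1 and Rgs13 turned to 1.12 and 1.11. The share of barcodes that were tuft-like had a ratio of 0.451, while their median UMI count was higher in the second library (5340 and 8715).

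In tuft-like barcodes a UMI of Dclk1 was found in 97.4% and 100%, of Trpm5 in 98.7% and 100%, and of Alox5ap in 97.4% and 96.8%. Pou2f3 was found in 69.7% and 74.2%, and Il17rb in 60.5% and 71.0%. With barcodes thinned to 2000 UMIs, which left out 6 and 1 shallower tuft-like barcodes, Pou2f3 was detected in 45.7% (95% CI 33.7 to 58.1) and 37.7% (25.6 to 51.0), and Il17rb in 44.3% (32.4 to 56.7) and 32.8% (21.3 to 46.0). The intervals of both genes overlapped between the libraries. Thinned to 1000 UMIs, the shares were 20.0% and 19.4% for Pou2f3 and 17.3% and 22.6% for Il17rb, so the order of the libraries for Il17rb depended on the thinning depth. Rgs13 was detected in 97.1% (90.1 to 99.7) of thinned barcodes in the first library and 85.2% (73.8 to 93.02) in the second, and in 77.3% and 72.6% at 1000 UMIs, at summed levels of 1519 and 1504 CPM. The interquartile range of Rgs13 over tuft-like barcodes was 787 to 2566 CPM in the first library and 579 to 2842 CPM in the second.

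Il25 was seen in 15 of 76 tuft-like barcodes (19.7%, 95% CI 11.5 to 30.5) and in 11 of 62 (17.7%, 9.20 to 29.5), with at most 2 and 4 UMIs in a barcode. Of these, 10 and 9 also held a UMI of its receptor subunit Il17rb. In all, 46 and 44 tuft-like barcodes held Il17rb. Outside the class Il25 had 2 and 1 UMIs among all other kept barcodes.

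The 9 genes were seen together. Every tuft-like barcode held UMIs of at least 4 of them in Adipfl/fl mice and at least 5 in Adipfl/flpVilli-CreT mice, and 71 of 76 and 60 of 62 held at least 6. All 9 were found in 8 and 6 barcodes. Most other kept barcodes held 0. Of 1776 and 3539 enterocyte-like barcodes, 1695 and 3310 held none of the 9, and of 471 and 554 T cell-like barcodes, 451 and 528 held none.

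**Figure D3:**
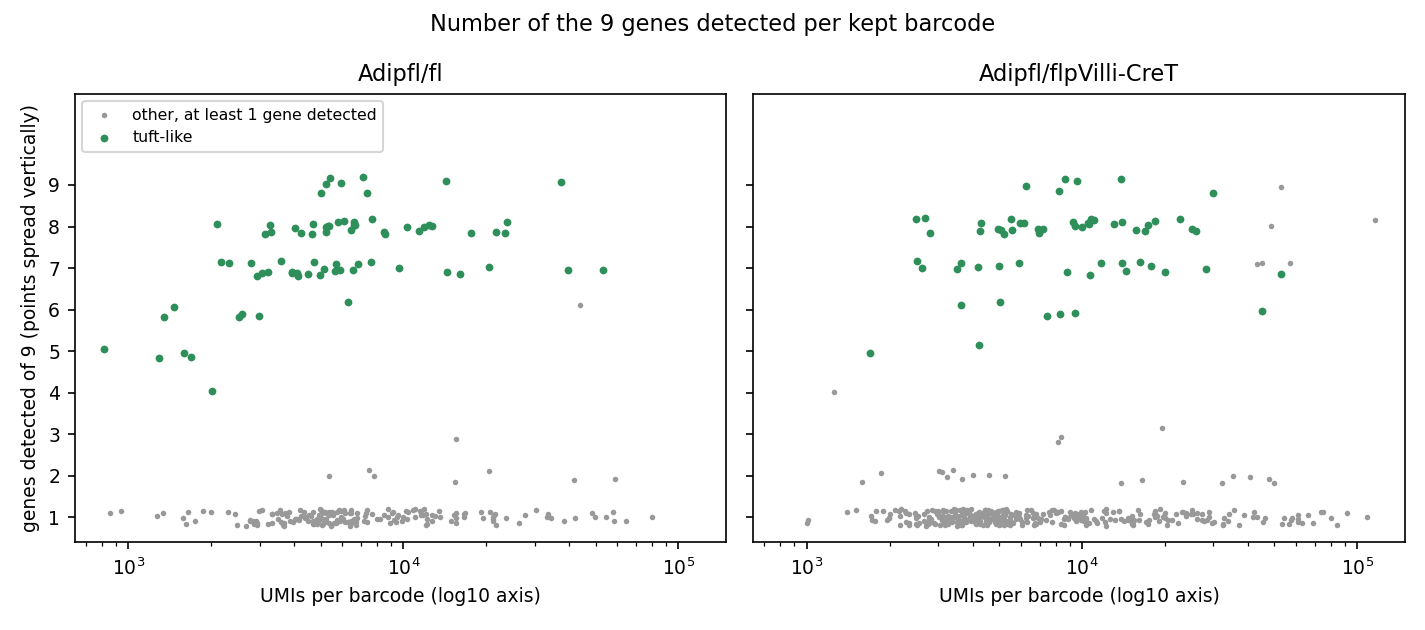
Number of the 9 genes with a UMI (vertical axis, points spread slightly) against UMIs per barcode (log10 axis) in each library, for tuft-like barcodes (green) and other kept barcodes with at least 1 of the genes (grey). Tuft-like barcodes sit at 4 to 9 genes. The 7 grey points at 6 or more genes lie between 43365 and 116134 UMIs.

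Outside the class, 7 kept barcodes held 6 or more of the genes. One was a crypt-like barcode of Adipfl/fl mice, and 4 crypt-like and 2 villus bottom-like barcodes came from Adipfl/flpVilli-CreT mice. All were very deep, with 43365 to 116134 UMIs, where the median kept barcode had 4838 and 4749. They held 12.9% and 51.1% of the UMIs that the 9 genes had outside tuft-like barcodes. All 7 held Dclk1 and Rgs13: one crypt-like barcode with 52878 UMIs had 46 of Dclk1, 18 of Trpm5, 18 of Sh2d6 and 9 of Rgs13. They move the comparison of the remaining barcodes. Dclk1 outside the tuft-like class had 16 and 172 UMIs, a fold of 5.59 (3.35 to 10.0). Crypt-like barcodes without these 7 held 0 and 2 Dclk1 UMIs and villus bottom-like ones 0 and 4. The 7 were chosen for holding the genes, so leaving them out lowers these counts by design. Their doublet scores ranked at 79.4 to 91.3% of their library's barcodes, and whether they hold more than 1 cell was not tested. Without barcodes over 40000 UMIs, the tuft-like share of all UMIs of the 9 genes was 94.4% and 91.9%, where it was 93.6% and 84.5% with them.

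Apart from the deep barcodes with 6 or more of the 9 genes, Pou2f3 was found in 6 crypt-like barcodes (2 of 86 and 4 of 282). Of these 6, 5 held another of the 9 genes. The 6 held 24 UMIs of Pou2f3, 10 of Trpm5, 10 of Avil and 1 of Sh2d6, but 0 of Dclk1, Rgs13, Alox5ap, Il17rb and Il25. In tuft-like barcodes Dclk1 had 9.68 and Rgs13 8.59 UMIs for each UMI of Pou2f3. One Adipfl/flpVilli-CreT barcode with 19488 UMIs had 11 of Pou2f3, 3 of Avil and 2 of Trpm5, and another with 8372 UMIs had 5, 4 and 5. Among Adipfl/fl barcodes, one with 15567 UMIs had 3 of Pou2f3, 3 of Avil and 1 of Trpm5. All 6 also held UMIs of Atoh1 or Dll1, an early secretory factor and a Notch ligand of secretory progenitors, which 30.2% of the 368 crypt-like barcodes did. These 6 barcodes were singled out after their values were seen, among barcodes with fewer than 6 of the 9 genes. Crypt-like Adipfl/flpVilli-CreT barcodes with 6 or more held 12 to 46 UMIs of Dclk1 and 7 to 39 of Rgs13. The counts of 0 therefore rest in part on this choice.

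Outside the class, Trpm5 was found mostly in enterocyte-like barcodes. Enterocyte-like barcodes held 39 UMIs of it in Adipfl/fl mice (3.499 CPM, 95% CI 2.49 to 4.78) and 162 in Adipfl/flpVilli-CreT mice (7.20 CPM, 6.13 to 8.39), a fold of 2.06 (1.44 to 2.997). In that class 5.02% of 12056 genes were at least 1.5-fold higher and 5.94% at least 1.5-fold lower. The same barcodes held 2 and 11 UMIs of Dclk1 and 2 and 8 of Rgs13. Trpm5 thus made up 44.8% and 63.0% of the UMIs of the 9 genes in enterocyte-like barcodes, against 11.6% and 10.2% in tuft-like ones. In T cell-like barcodes, of similar median depth, Trpm5 had 1 and 0 UMIs.

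Within the enterocyte-like class, Trpm5 was highest where Ada was. Of the 7 enterocyte-like clusters, the 3 with the most Ada, an adenosine deaminase of the villus tip, held 29 and 133 of the Trpm5 UMIs, which is 12.1 and 19.9 CPM. The other 4 clusters held 10 and 29 UMIs, at 1.14 and 1.83 CPM. The level was 10.6-fold higher in the Ada-rich clusters in Adipfl/fl mice (5.04 to 24.5) and 10.9-fold in Adipfl/flpVilli-CreT mice (7.24 to 16.9). Most barcodes with the gene had a single UMI: 28 and 117 Ada-rich barcodes held it, and the highest count was 2 and 3. At 2000 UMIs per barcode it was detected in 2.54% of 552 and 3.54% of 1610 of these barcodes. Trpm5 lies across Tssc4 on the other strand. Tssc4 had 10 and 53 UMIs in the Ada-rich clusters, a level 0.353-fold (0.164 to 0.675) and 0.676-fold (0.488 to 0.922) that of the other enterocyte-like clusters. Whether reads of Tssc4 were counted for Trpm5 was not tested.

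**Figure D4:**
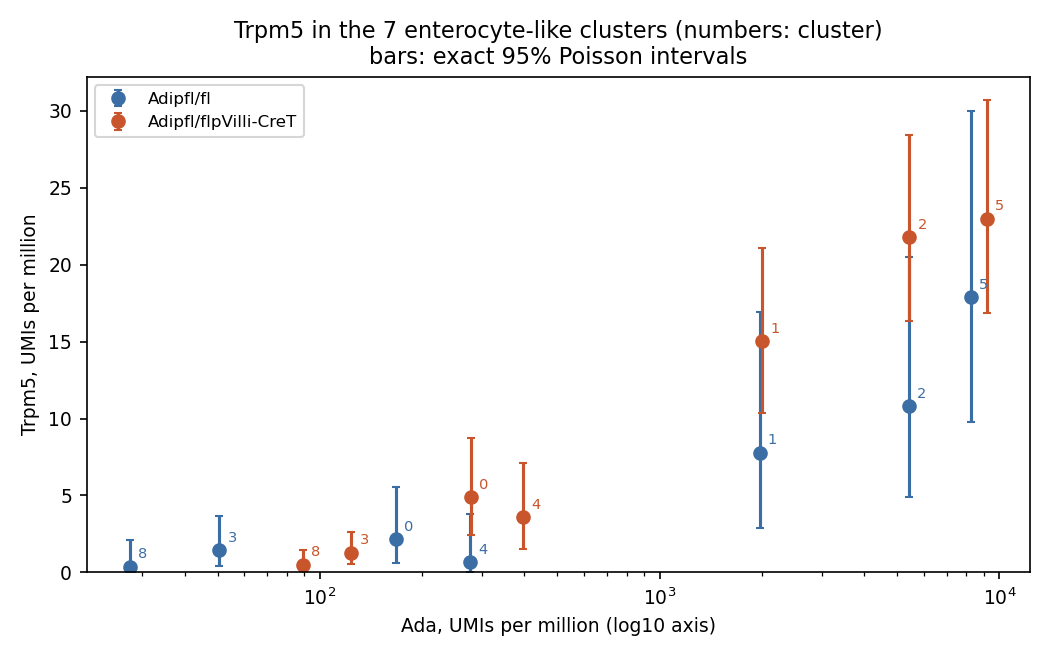
Trpm5 (vertical axis, CPM) against Ada (log10 axis, CPM) in the 7 enterocyte-like clusters, 1 point per cluster and library, with exact 95% Poisson intervals. Clusters 1, 2 and 5, with the most Ada, hold 7.79 to 23.0 CPM of Trpm5, and the others 0.377 to 4.87.

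The mix of clusters also differed between the libraries. The Ada-rich clusters made up 574 of 1776 enterocyte-like barcodes in Adipfl/fl mice and 1709 of 3539 in Adipfl/flpVilli-CreT mice. Within them the fold was 1.64 (1.09 to 2.54), and in the other clusters 1.60 (0.760 to 3.69). Weighted equally over the 7 clusters, the level was 5.87 and 10.0 CPM, and 6 of 7 clusters were higher in Adipfl/flpVilli-CreT mice.

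The receptor subunit Il17rb had 18 and 18 UMIs in enterocyte-like barcodes (1.61 and 0.799 CPM), 9 and 13 in villus bottom-like ones (1.66 and 1.16 CPM) and 6 and 7 in T cell-like ones (2.03 and 2.21 CPM). Tuft-like barcodes held 76.0% and 69.9% of its UMIs. Avil had 11 and 7 UMIs in T cell-like barcodes (3.73 and 2.21 CPM).

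Alox5ap was the gene shared with leukocytes. Tuft-like barcodes held 78.9% and 78.0% of its UMIs, and most of the rest in Adipfl/fl mice lay in a myeloid-like cluster and in a mixed cluster led by immunoglobulin genes and Siglech, a receptor of plasmacytoid dendritic cells. The myeloid-like cluster (61 and 32 barcodes, led by Lyz2, Apoe and C1qa and also holding mast cell genes) had 42 and 48 Alox5ap UMIs, at 163 and 326 CPM. This was 0.168 (0.120 to 0.230) and 0.371 (0.271 to 0.499) of the tuft-like level in the same library. With tuft barcodes taken instead by at least 2 tuft markers, the ratios were 0.245 and 0.632. Between the libraries the myeloid-like level differed 2.00-fold (1.29 to 3.10). The other 8 genes together had 1 and 5 UMIs in this cluster, of which Avil had 1 and 4.

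The mixed cluster was split by Siglech after the values were seen. In barcodes with a Siglech UMI (23 and 14), Alox5ap had 105 and 48 UMIs, or 778 CPM (636 to 942) and 644 CPM (475 to 854), and was found in 23 of 23 and 13 of 14 barcodes. In barcodes without one (7 and 15, richer in immunoglobulin UMIs) it had 0 and 0 UMIs, which allows up to 31.8 and 19.8 CPM. The Siglech-positive level was 0.802 (0.645 to 0.988) and 0.733 (0.535 to 0.985) of the tuft-like level and differed between the libraries by a fold of 0.828 (0.576 to 1.18). The other 8 genes had 1 and 0 UMIs in those barcodes. These barcodes held 13.8% of all Alox5ap UMIs in Adipfl/fl mice and 6.09% in Adipfl/flpVilli-CreT mice.

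**Figure D5:**
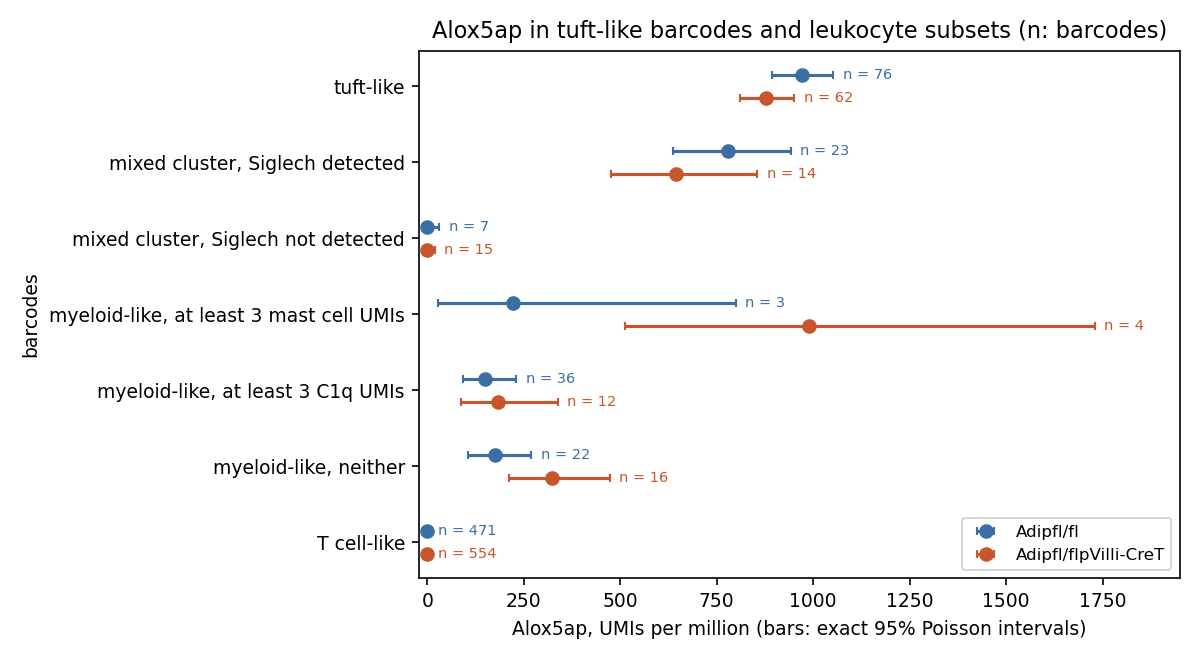
Alox5ap (horizontal axis, CPM, with exact 95% Poisson intervals) in tuft-like barcodes, both subsets of the mixed cluster, 3 subsets of the myeloid-like cluster and T cell-like barcodes, for both libraries, with the number of barcodes. Siglech-positive barcodes come closest to the tuft-like level with narrow intervals, and barcodes without Siglech and T cell-like barcodes lie at or near 0.

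Within the myeloid-like cluster, barcodes with at least 3 UMIs of C1q genes, which mark macrophages, had 20 and 10 Alox5ap UMIs (149.8 and 184 CPM). The 3 and 4 barcodes with at least 3 UMIs of mast cell genes had 2 and 12, at 221 and 990.1 CPM with intervals from 26.8 to 1729.5 CPM. T cell-like barcodes had 1 and 1 UMI.

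Alox5, the 5-lipoxygenase, had 228 and 256 UMIs in tuft-like barcodes (369 and 366 CPM), 27.2 and 6.80 CPM in myeloid-like ones and 0 UMIs in the mixed cluster. Ltc4s, which makes leukotriene C4, had 653 and 636 CPM in tuft-like barcodes, 85.6 and 81.6 CPM in myeloid-like ones and 0 UMIs in the mixed cluster. Hpgds, the prostaglandin D synthase, had 187 and 211 CPM in myeloid-like and 188 and 154 CPM in tuft-like barcodes.

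Transcripts of leukocytes were checked in tuft-like barcodes in turn. Cd68, C1qa, C1qb, C1qc, Aif1, Itgax, Flt3, Clec9a and Xcr1 were at 0 in both libraries, the 15 myeloid markers summed to 93 and 105 UMIs (150.4 and 150.0 CPM), and 6 and 3 of them had any UMI. Ptprc, which encodes the leukocyte antigen CD45 and is known in tuft cells, had 180 and 175 UMIs. Of 17 measured genes that tuft cells are known to share with leukocytes, such as Alox5, Siglecf and Lrmp, 17 were higher in tuft-like than in myeloid-like barcodes. In all, 16 were higher than in T cell-like ones (the exception was Rac2), and no share over all genes was computed for either comparison. Over 50% of the UMIs were in tuft-like barcodes for 10, where 0.756% of all genes had at least 50% there. The list is of known tuft genes, so these counts do not measure leukocyte transcripts in the class.

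Over 7 lists of related genes, 50 had at least 20 UMIs in tuft-like barcodes. Of these, 0 were at least 1.5-fold higher in Adipfl/flpVilli-CreT mice and 4 at least 1.5-fold lower, where 10.3% and 8.51% of all genes were, and the median log2 fold was -0.03. Intervals lay above 1 for 3 and below 1 for 9, where 6.21% and 3.74% of all genes did. These counts, and the folds of the lists below, include the 4 Adipfl/flpVilli-CreT tuft-like barcodes with many goblet or T cell transcripts. No values of the lists without those barcodes are given here, so the limit stated for Trpm5, Sh2d6 and Pou2f3 applies to them too.

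In the taste-type transduction list, 0 of 9 tested genes were past 1.5-fold upward and 1 downward, where 10.3% and 8.51% of all genes were. Plcb2, the phospholipase upstream of Trpm5, had 158 and 103 UMIs, a fold of 0.576 (0.445 to 0.743). Gng13, a G protein subunit that acts with it, had 135 and 210 UMIs, a fold of 1.37 (1.102 to 1.72). Gnat3, the alpha subunit gustducin, had 61 and 78 UMIs, a fold of 1.13 (0.798 to 1.61), and the succinate receptor Sucnr1 had 163 and 189, a fold of 1.02 (0.826 to 1.27). The Tas1r taste receptor genes in the list were at or near 0, with 0 and 0 UMIs of Tas1r1 and 1 and 1 of Tas1r3.

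In the list of eicosanoid synthesis, 0 of 7 tested genes had an interval outside 1, where 9.95% of all genes did. Alox5 had a fold of 0.992 (0.826 to 1.19), Ltc4s of 0.973 (0.849 to 1.12) and Ptgs1, a cyclooxygenase, of 1.097 (0.928 to 1.30). In the cytokine list of 7 tested genes, 1 had an interval below 1, where 3.74% of all genes did. It was Tslp, an epithelial cytokine, with 20 and 6 UMIs in 15 and 5 tuft-like barcodes and a fold of 0.265 (0.0871 to 0.684). Traf3ip2, an adaptor of IL-17 receptors, had 12 and 9 UMIs, a fold of 0.663 (0.247 to 1.71).

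Of the 7 tested transcription factors, 0 had an interval outside 1, where 9.95% of all genes did. Among the 7 were Spib at 0.943 (0.791 to 1.12), Gfi1b at 1.09 (0.678 to 1.75) and Sox9 at 1.102 (0.964 to 1.26). In the list of src and adaptor signalling, 5 of 11 had an interval below 1 and 1 above, where 3.74% and 6.21% of all genes did. Matk, a kinase that inhibits src kinases, had 1069 and 790 UMIs, a fold of 0.653 (0.595 to 0.716). Pik3cg, a G protein-coupled PI3 kinase, had 137 and 226 UMIs, a fold of 1.46 (1.17 to 1.82). In the microvillus and tubule list, the keratin Krt18 had a fold of 0.792 (0.767 to 0.818) and the membrane linker Ezr, with 213 and 302 UMIs, 1.25 with an interval above 1. In that list 2 of 8 genes had an interval below 1 and 1 above, beside the same 3.74% and 6.21% of all genes. Of the G protein regulators, 2 of 6 could be compared, and Rgs2 had a fold of 0.890 (0.749 to 1.06).

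Genes with the profile most like the mean of the 9 were Hmx2, Ly6g6f, Hmx3, Rgs22, Mn1, Bmx, Kcnd3, Chat, Smpx and Itprid1. Likeness was Pearson's r of log2(CPM + 1) over 20 points, 10 classes in each of the 2 libraries, among 14158 genes, and ran from 0.992 for Hmx2 to 0.986 for Itprid1. The points share libraries and most are near 0, so r rests on the tuft-like points. Each of the 10 genes had 87.1% to 96.5% of its UMIs in tuft-like barcodes. Of the 9 genes themselves, Rgs13 (0.982) and Il25 (0.976) were closest to the mean and Alox5ap (0.658) was farthest. Chat, the enzyme of acetylcholine synthesis, had 79 and 58 UMIs in tuft-like barcodes, a fold of 0.649 (0.454 to 0.922).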

How the data were processed

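Dissociated small intestinal epithelium of both genotypes, enriched for crypts per the study, was captured with the 10x Genomics 3′ kit. Per the labels and the study's methods, the authors ran bcl2fastq and Cell Ranger (7.1.0 in the file header) on build mm10 and deposited raw UMI counts per gene and barcode, without normalization. Whether intronic reads were counted is not given in the sources used here.

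From these deposited counts, barcodes with over 500 genes and under 25% of UMIs in genes whose symbol begins with mt- were kept. This is how the study's stated filter was read, and it left fewer barcodes here than the study gives, with the larger shortfall in Adipfl/fl mice. The shares of kept barcodes that were tuft-like rest on this filter. Both libraries were clustered together in Seurat 5.3.0 (R 4.3.3, LogNormalize, 2000 variable genes without the 9 genes, all 9 of which were variable, 20 principal components, resolution 0.8). A cluster took the class with the largest share of its markers at least 2-fold higher there with at least 10 UMIs, and at least 3 markers. The mixed cluster met this rule for B or plasma cells (6 of 8 markers) and was renamed by hand after its leading genes. The crypt-like cluster met it with 15 of 15 crypt and 5 of 5 fibroblast markers, and the class with more markers was taken. Doublets were not removed. Levels are summed UMIs per 1000000. Intervals are exact (Poisson, Clopper-Pearson or conditional) at 95%, for counting error only. No p-value is given. Folds against 0 UMIs took a floor of 3 counts. The interval code was tested on simulated data.

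The genes, lists and tests were chosen with earlier results of these data known. The rule for named genes took the 9 genes, genes of 7 pathway lists at least 1.5-fold different with an interval outside 1, the 10 genes most like the mean profile, Adipoq, and markers that a result turns on. Unnamed-locus (Gm) genes were left out of those 10. Any further gene, such as Gng13, Gnat3, Krt18 or Rsad2, was picked with its values in view. Alternatives changed the filters, clustering, class rule, doublets, denominator, barcode weight and thinning. Python 3.11.15 with scipy 1.17.1, scanpy 1.11.5 and matplotlib 3.10.9 was used. One gene of the lists is not reported here.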

Additional observations from a re-analysis of the deposited data

Results flagged for a closer look

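Barcodes outside the main filter also held the 9 genes, a signal in data that no comparison under that filter used. The 6722 removed barcodes of Adipfl/fl mice held 163 UMIs of them (9.90 CPM) and the 6283 of Adipfl/flpVilli-CreT mice 224 (15.5 CPM). The floor of 3 counts would be 0.182 and 0.207 CPM. The kept barcodes had 227 and 139 CPM. Of these UMIs, 33.7% and 52.7% were Trpm5, with 55 and 118 UMIs, a fold of 2.44 (95% CI 1.76 to 3.42), while Dclk1 had 11 and 15 and Sh2d6 39 and 38. In each library, 1 removed barcode held 4 of the 9 genes and none held more.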

How the results depend on the processing

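No paired analysis was possible because each genotype is 1 library. The tuft-like share ratio and the median folds stayed below 1 under each alternative run for them, while folds of single genes crossed 1. The following moved by more than their interval or by over 10%; the cause was not tested. The share of the 9 genes' UMIs in tuft-like barcodes was 85.9% in Adipfl/flpVilli-CreT mice at a mitochondrial limit of 10%. With the mitochondrial share taken from the 13 protein-coding genes it was 91.98% and 82.5%, the tuft-like share ratio was 0.661 and the median fold over all kept barcodes 0.753. With tuft barcodes taken by at least 2 markers, the share was 94.8% and 93.2%, the median fold in tuft barcodes 0.756, and Alox5ap in myeloid-like over tuft barcodes 0.245 and 0.632. With the 8% highest Scrublet scores removed, the share was 91.96% in Adipfl/fl mice, the median fold over all kept barcodes 0.854, and the folds of Dclk1 (1.12) and Rgs13 (1.11) reversed. Without barcodes over 40000 UMIs, added after seeing the data, the share was 94.4% and 91.9%. Without the 4 mixed tuft-like barcodes, also added then, the Sh2d6 fold reversed to 1.0003. It was below 1 in 12 of the 13 alternatives, from 0.741 upward, and the interval lay below 1 in 9 of the 12 that give one. Over the 13 alternatives the tuft-like fold stayed below 1 for Trpm5 (0.681 to 0.903), Pou2f3 (0.683 to 0.866) and Il17rb (0.706 to 0.970), with the interval below 1 in 11, 9 and 1 of the 12 that give one. For Dclk1 it ran from 0.847 to 1.21, for Rgs13 from 0.818 to 1.25, for Avil from 0.757 to 1.05 and for Alox5ap from 0.756 to 1.17. With 30 principal components, resolution 0.4, resolution 1.2 or the 9 genes kept among the variable genes, the same 138 barcodes were tuft-like. These alternatives repeat the main tuft-like folds and intervals and are not separate checks of them. A myeloid-like cluster was not found under 4 of the settings, which give no Alox5ap ratio. Depth limits Il25 most, at 39 UMIs in tuft-like barcodes.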

Other observations

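Metallothionein 1 (Mt1), which binds zinc and other metals, set the tuft-like barcodes of the libraries apart more than any of the 9 genes did. It had 101 UMIs in 13 of 76 tuft-like barcodes of Adipfl/fl mice and 1885 UMIs in 62 of 62 of Adipfl/flpVilli-CreT mice, a fold of 16.5 (95% CI 13.5 to 20.3). The level was also higher in each of the other 9 classes, from 2.03-fold in myeloid-like to 18.0-fold in mixed-cluster barcodes. Mt2 in tuft-like barcodes differed less, with 23 and 29 UMIs and a fold of 1.11 (0.622 to 2.02).

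Interferon-induced transcripts in tuft-like barcodes rested on few barcodes. Rsad2 had 63 and 15 UMIs, of which 1 barcode of Adipfl/fl mice held 28 and another 17, and Mx1 had 28 and 7 UMIs, of which 1 barcode held 18.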
